A study of Mus musculus with 9 samples.

Results

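The mitochondrial genome of the mouse carries the tRNAs for histidine (anticodon GTG), serine (anticodon GCT) and leucine (anticodon TAG) side by side, between the genes of the respiratory complex I subunits mt-Nd4 and mt-Nd5. These 3 neighbouring tRNAs, annotated as mt_tRNA-His-GTG, mt_tRNA-Ser-GCT and mt_tRNA-Leu-TAG, were taken by name from small RNA profiles of mouse atrial appendages. Each was split into 4 parts: reads assigned to its 5′ end, to its 3′ end without CCA, to its CCA end, and all remaining reads of the tRNA, called the other part. That gave 12 parts among 996 features of the whole data set. All 12 passed the filter on low counts, which left 520 features for testing.

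The 9 libraries came from C57BL/6 mice, 3 libraries per group. The curcumin group was 18 months old and had been given 100 mg/kg curcumin each day, in non-fat skim milk, from 12 to 18 months of age. The old group was 18 months old and the young group 5 months old, both without curcumin, and no transgene or engineered allele is named for any group. The labels do not say whether the untreated mice received the milk. The libraries were made by PANDORA-seq, in which RNA is treated with AlkB, a demethylase that removes base methylations that stall reverse transcription, and with T4 polynucleotide kinase, which repairs RNA ends so that adapters can be ligated. An RNA fraction of 15 to 45 nucleotides was sequenced, so the reads are fragments of these tRNAs and not the full-length molecules. The design gives 3 mice per group, but the labels do not tie a library to an animal, so p-values measure the spread between libraries.

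Mammalian mitochondrial DNA is transcribed into long polycistronic RNAs in which tRNAs punctuate the mRNAs and rRNAs. RNase P cuts at the 5′ end of most of these tRNAs, though not of every one, and ELAC2 (RNase Z) cuts at the 3′ end. The nucleotidyltransferase TRNT1 then adds the CCA to which the amino acid is attached. The mitochondrial tRNA that reads AGY serine codons, Ser-GCT, lacks the D arm of the usual cloverleaf.

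The gene sequences are shown because the 3 tRNAs lie end to end and because the CCA, which defines one of the parts, is not encoded in any of them. All are on the plus strand of the mitochondrial chromosome (mm10, transcripts of GENCODE M21), written 5′ to 3′ as DNA, with the anticodon in capitals.
mt-Th (tRNA-His-GTG, ENSMUSG00000064364.1, chrM:11546-11612): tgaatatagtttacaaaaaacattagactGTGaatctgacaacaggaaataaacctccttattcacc
mt-Ts2 (tRNA-Ser-GCT, ENSMUSG00000064365.1, chrM:11613-11671): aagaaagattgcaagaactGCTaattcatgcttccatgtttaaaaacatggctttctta
mt-Tl2 (tRNA-Leu-TAG, ENSMUSG00000064366.1, chrM:11671-11741): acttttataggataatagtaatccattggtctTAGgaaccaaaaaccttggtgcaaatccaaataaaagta

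The genes are 67, 59 and 71 bases long, and A and T make up 68.7%, 67.8% and 69.0% of mt-Th, mt-Ts2 and mt-Tl2. mt-Nd4 ends at base 11544, which leaves 1 base before mt-Th. mt-Th is followed by mt-Ts2 with no base between them. mt-Ts2 and mt-Tl2 share base 11671, and mt-Nd5 starts at base 11742, directly after mt-Tl2. The CCA ends were therefore mostly reads that did not match the genome: 1.95% to 7.79% of His-GTG CCA-end reads, 2.40% to 17.3% of those of Ser-GCT and 1.30% to 3.17% of those of Leu-TAG matched it. Reads of the Leu-TAG other part also matched only in 22.3% to 53.5%. Those of the other part matched in 94.7% to 98.6% for His-GTG and 97.9% to 99.0% for Ser-GCT. Genome-matched and unmatched reads were summed throughout.

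The libraries held 12899427 to 19707803 clean reads, of which the 3 tRNAs took 2.41% to 4.93% (369500 to 971489 reads). Levels are given as CPM, counts scaled to the feature reads of each library times its TMM factor. The muscle miRNA precursors mir-1a-1 (2484 to 8544 CPM) and mir-133a-1 (97.9 to 257 CPM), each 1 of a pair of loci that share reads, and the endothelial miR-126a (4178 to 10451 CPM) were found in every library. The cardiac miR-208a reached 15.8 to 32.6 CPM, while miR-208b and miR-499 were at or near 0. Smooth muscle mir-143 and mir-145a had 165 to 628 and 73.4 to 175 CPM. Red blood cell mir-144 and mir-451a ranged from 3.16 to 76.7 and from 4.31 to 167 CPM. Leukocyte mir-142a and mir-223 ranged from 22.6 to 263 and from 17.8 to 81.8 CPM, so the content of blood cells may differ between libraries. Levels are those of bulk tissue, in which fewer cells of a type and less RNA per cell cannot be told apart.

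The 3 libraries numbered 1, 1 in each group, stood apart from the 6 numbered 2 and 3. In 6 of the 12 parts, every library numbered 1 was above every other library, and in 0 of 12 every one was below. Over all features, 9.62% were above and 12.3% below in that way. The 6 parts were the 3′ end without CCA of all 3 tRNAs, the 5′ end and the other part of Ser-GCT, and the other part of Leu-TAG. The His-GTG 3′ end without CCA had 92.5 to 96.3 CPM in the libraries numbered 1 and 8.80 to 20.9 CPM in the rest. That of Leu-TAG had 243 to 385 CPM and 38.2 to 76.2 CPM, and that of Ser-GCT 8.39 to 10.0 CPM and 0.710 to 2.52 CPM, in the same order. Results are therefore given with all 9 libraries and again with only the 6 numbered 2 and 3. That choice came from these same data, so calls and p-values of the smaller fit are descriptive and are no independent test. A fit with the library number as a block, which takes its effect to be the same in every group, called 0 features in each comparison. Whether that effect differed between groups was not tested.

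Ser-GCT had the most fragment reads per base of gene length among the 22 mitochondrial tRNAs in the mean of every group. This scale ranks fragments and does not give the abundance of the full-length tRNAs. It averaged 453 ± 37.5 CPM per base in the curcumin group, 315 ± 154 in the old group and 380 ± 170 in the young group (SD, n = 3 each). It stood first in 8 of 9 libraries by this scale and second, behind His-GTG, in old library 2. His-GTG averaged 83.9 ± 20.9, 158 ± 71.1 and 153 ± 52.7 CPM per base in the curcumin, old and young groups, which placed it at rank 4, 3 and 3. Leu-TAG averaged 59.6 ± 5.82, 96.9 ± 14.0 and 99.3 ± 10.5 CPM per base, at rank 7, 5 and 5. In each group the range of Ser-GCT over libraries lay wholly above that of the tRNA next in order, Val-TAC, although in the old group it overlapped that of His-GTG. The ranges of His-GTG overlapped those of the next tRNA below in every group, and those of Leu-TAG did so in the old and the young group.

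**Figure D1:**
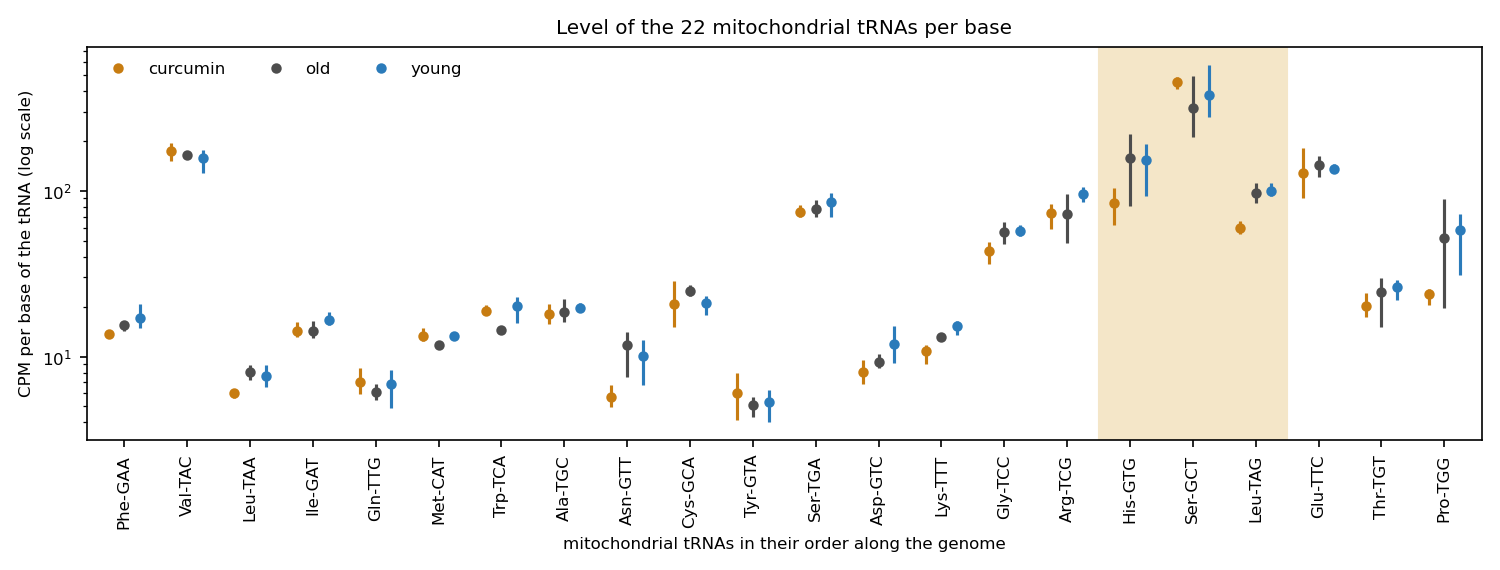
Level of the 22 mitochondrial tRNAs in CPM per base (log axis), in their order along the genome, with points for group means and lines from the lowest to the highest of 3 libraries. The shaded neighbours His-GTG, Ser-GCT and Leu-TAG have different group means of fragment reads, with Ser-GCT at 315 to 453 and Leu-TAG at 59.6 to 99.3.

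The fragment reads per base of the 3 neighbouring tRNAs were not in a fixed ratio across libraries. Ser-GCT was 4.64, 7.41 and 4.86 times as high as His-GTG in curcumin libraries 1, 2 and 3. The same ratio was 6.10, 0.962 and 1.40 in old libraries 1, 2 and 3, and 6.22, 1.59 and 1.49 in young libraries 1, 2 and 3. All 3 curcumin libraries and the libraries numbered 1 of the old and young groups thus had ratios above 4, and the other 4 libraries had ratios below 2. Ser-GCT over Leu-TAG split the libraries in the same way, at 7.32, 8.41 and 7.16 in the curcumin group, 5.82, 1.89 and 2.56 in the old group and 6.14, 3.00 and 2.55 in the young group.

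Each tRNA was seen mainly through a different part. The other part held 94.3% to 97.9% of His-GTG reads, and the 5′ end held 93.7% to 95.1% of Ser-GCT reads. Leu-TAG reads were split between the CCA end, with 40.9% to 79.5%, and the other part, with 19.6% to 50.4%. The other part of Ser-GCT held 4.70% to 6.09%. Each of the remaining parts held at most 8.19% of the reads of its tRNA, a share reached by the Leu-TAG 3′ end without CCA in curcumin library 1. The files do not give positions within the other part, so which bases of His-GTG its reads cover was not analysed here.

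**Figure D2:**
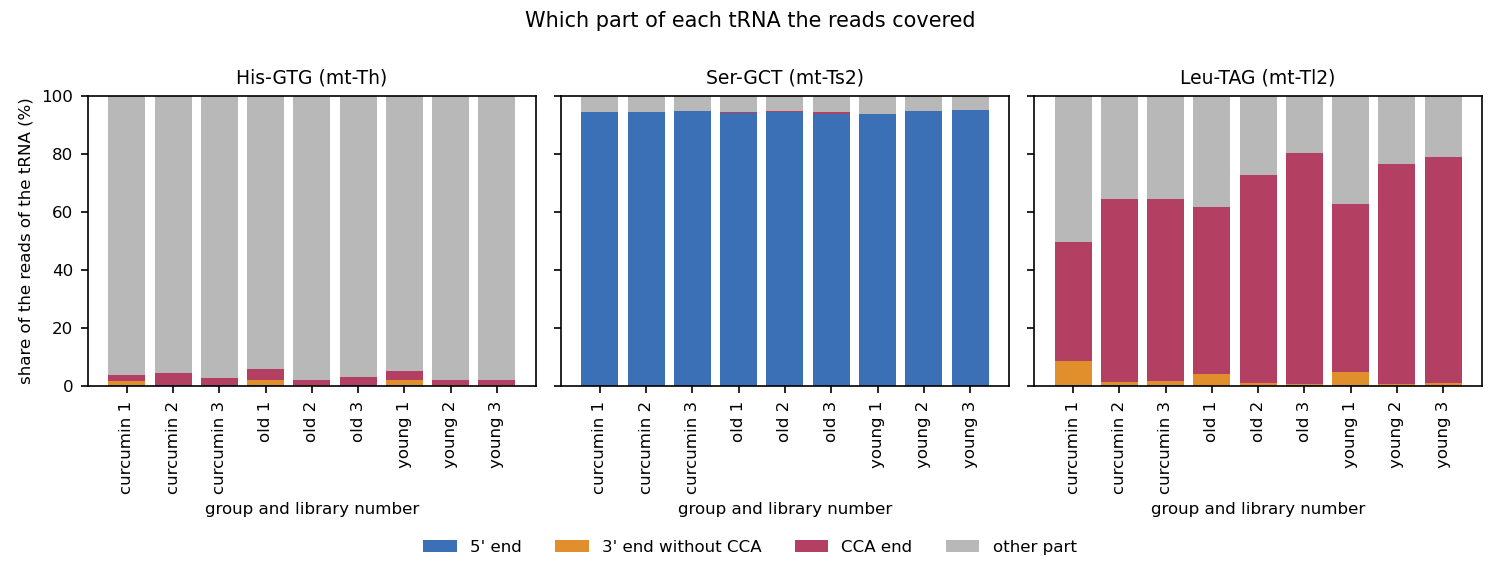
Share of the reads of each tRNA (percent, vertical axis) in its 4 parts, 1 bar per library. His-GTG bars are mostly other part, Ser-GCT bars mostly 5′ end, and Leu-TAG bars are split between the CCA end (40.9% to 79.5%) and the other part.

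The first question was how curcumin-treated mice compared with untreated mice of the same age. Leu-TAG was lower in all 3 curcumin libraries than in all 3 old libraries, through its CCA end, whereas Ser-GCT had a higher mean and His-GTG a lower mean in ranges that overlapped. No part of any tRNA passed the test across all features. edgeR's quasi-likelihood test called 0 of 520 features at an adjusted p under 0.05, so that 0 of the 12 parts were called beside 0% of all features. At an unadjusted p under 0.05 edgeR had 21 features, which is 4.04% of all, among them 2 of the 12 parts (the Leu-TAG and His-GTG CCA ends). DESeq2 called 0 features, with 29 of 520 at an unadjusted p under 0.05, among them 4 of the 12 parts. Its smallest adjusted p, 0.0935, was that of the Leu-TAG CCA end.

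The CCA end of Leu-TAG, the mature 3′ terminus of the tRNA for CUN leucine codons, had 1921, 2474 and 2559 CPM in the curcumin libraries and 3444, 5713 and 5325 CPM in the old libraries. Every curcumin library was below every old library. The means were 2318 ± 347 and 4828 ± 1214 CPM (SD, n = 3 each), a log2 change of -1.06 (SE 0.27, adjusted p = 0.525 by edgeR). The other part of the same tRNA showed no such gap, with 2371, 1384 and 1457 CPM in the curcumin libraries and 2301, 2156 and 1311 CPM in the old libraries.

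The 3′ end of Leu-TAG without CCA had 385, 39.0 and 54.9 CPM in the curcumin libraries and 243, 76.2 and 40.3 CPM in the old libraries, and its 5′ end had 23.8, 17.7 and 10.8 CPM and 7.33, 13.9 and 18.3 CPM. In both parts the ranges overlapped. As a whole, Leu-TAG had 4700.2, 3916 and 4082 CPM in the curcumin libraries and 5995, 7959.6 and 6695 CPM in the old libraries, again without overlap, with a log2 change of -0.71 (SE 0.22, adjusted p = 0.875 over 319 features with tRNAs taken whole). How many of these 319 features did not overlap was not counted.

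The CCA end of His-GTG, the tRNA that reads histidine codons, had 139.9, 169.8 and 135 CPM in the curcumin libraries and 199, 280.0 and 313 CPM in the old libraries. These groups did not overlap either, and the log2 change was -0.83 (SE 0.26, adjusted p = 0.687). The CCA ends of Leu-TAG and His-GTG were 2 of 12 parts with all curcumin libraries below all old libraries, beside 6.73% of all features below in that way and 12.9% not overlapping in either direction. None of the 12 parts had all curcumin libraries above all old libraries, beside 6.15% of all features. Among the 76 tested parts of the other 19 mitochondrial tRNAs, 8 were below and 3 above in the same sense.

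The main part of His-GTG had 6741, 4007 and 5511 CPM in the curcumin libraries and 5094, 14449 and 11179 CPM in the old libraries. Old libraries 2 and 3 were the high ones, and old library 1 was within the curcumin range. The log2 change was -0.92 (SE 0.41, adjusted p = 0.917) for this part and -0.92 (SE 0.43, adjusted p = 0.875) for His-GTG as a whole. Its 5′ end had 24.8, 11.6 and 13.6 CPM in the curcumin libraries and 18.7, 31.9 and 35.6 CPM in the old libraries, a log2 change of -0.79 (SE 0.44).

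Ser-GCT ran the other way in its main part. Its 5′ end, which begins directly after the last base of mt-Th, had 26966, 25814 and 23041 CPM in the curcumin libraries and 27291, 11842 and 13378 CPM in the old libraries. The curcumin libraries were close together, and old library 1 was above all of them while old libraries 2 and 3 were below. The log2 change was 0.53 (SE 0.38, adjusted p = 0.917), and it was 0.54 (SE 0.35, adjusted p = 0.875) for Ser-GCT as a whole.

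The other part of Ser-GCT had the same order of libraries, with 1574, 1534 and 1235 CPM in the curcumin libraries and 1642, 640.0 and 787 CPM in the old libraries (log2 change 0.50, SE 0.45). Its CCA end moved against these, with 46.2, 23.0 and 21.6 CPM in the curcumin libraries and 68.9, 38.1 and 83.8 CPM in the old libraries. Those ranges overlapped through curcumin library 1 and old library 2, and the log2 change was -1.07 (SE 0.51, adjusted p = 0.917).

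**Figure D3:**
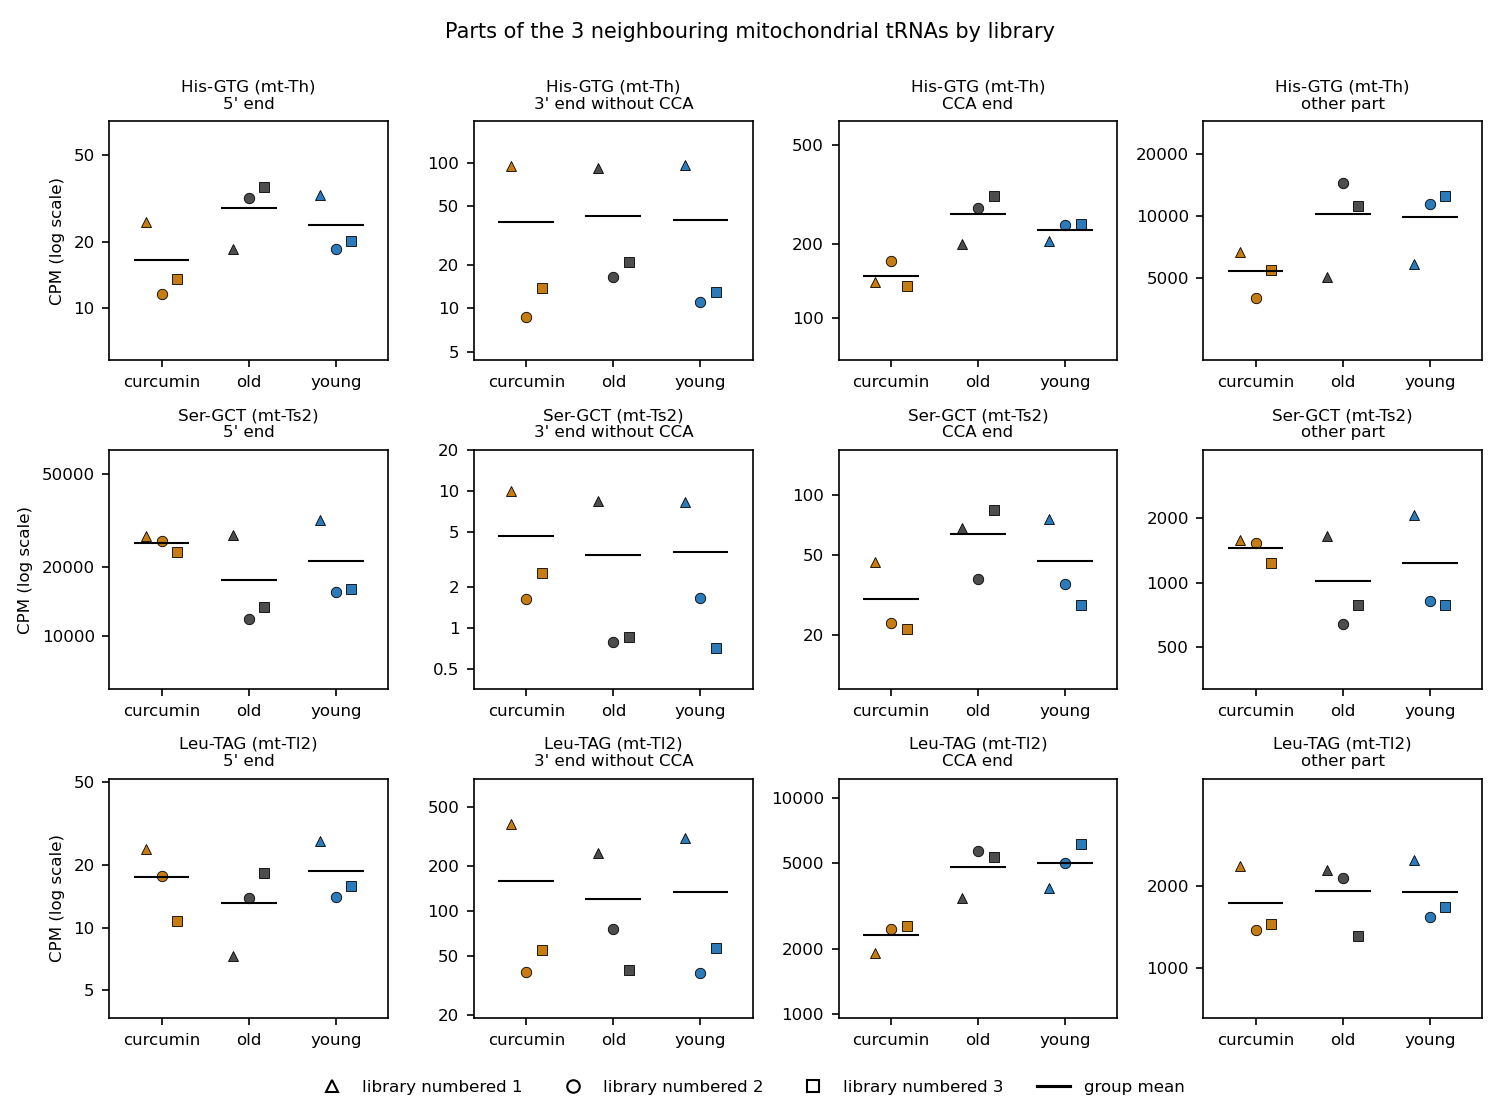
CPM (log axis) of the 12 parts by group, with 1 symbol per library (triangle, circle and square for the libraries numbered 1, 2 and 3) and a line at the group mean. The curcumin libraries lie below all others in the CCA ends of His-GTG and Leu-TAG, and the triangles lie above all other symbols in the 3′ ends without CCA.

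With only the libraries numbered 2 and 3, that is 2 against 2, edgeR called 73 of 519 features (14.1%) between the curcumin and the old group, and 7 of the 12 parts were among them. The libraries numbered 1 were left out because they stood apart in these same parts, so the calls and adjusted p-values are descriptive. Of the parts, 5 were lower in the curcumin libraries: the His-GTG other part (log2 change -1.43, adjusted p = 0.000206), 5′ end (-1.42) and CCA end (-0.96), the Ser-GCT CCA end (-1.45) and the Leu-TAG CCA end (-1.13, adjusted p = 0.0019). The 2 higher parts were the 5′ end (0.96, adjusted p = 0.00405) and the other part (0.96) of Ser-GCT. Over all features 7.51% were called lower and 6.55% higher, and of the 74 tested parts of other mitochondrial tRNAs 11 were called lower and 2 higher. Taken whole, all 3 tRNAs were called in this fit, His-GTG at a log2 change of -1.53, Leu-TAG at -0.99 and Ser-GCT at 0.84, beside 18.8% of 320 features. Among the other 19 mitochondrial tRNAs taken whole, 6 were called lower and 0 higher.

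The libraries numbered 1 differed in direction from those numbered 2 and 3 for His-GTG and Ser-GCT. In the curcumin library numbered 1, His-GTG took 7.64% of the reads of the 22 mitochondrial tRNAs, against 6.39% in the old library numbered 1. At numbers 2 and 3 it took 5.26% and 7.24% in the curcumin libraries, against 16.1% and 13.7% in the old libraries. Ser-GCT took 31.2% in the curcumin library numbered 1, against 34.3% in the old library of that number. Its shares at numbers 2 and 3 were 34.3% and 31.0% in the curcumin libraries, against 13.6% and 16.9% in the old libraries. Leu-TAG was lower in the curcumin library at every number.

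Set against the other mitochondrial tRNAs in this way, Leu-TAG took 5.13%, 4.90% and 5.21% of mitochondrial tRNA reads in the curcumin libraries and 7.09%, 8.65% and 7.92% in the old libraries. The means were 5.08% ± 0.157 and 7.88% ± 0.782 (SD, n = 3 each), and the groups did not overlap. The exact two-sided permutation test gave p = 0.1, the smallest that 3 against 3 allows, or 0.6 after adjustment over 12 comparisons of shares. Fitted with the mitochondrial tRNAs alone, scaled among themselves, Leu-TAG was the 1 tRNA of 22 (4.55%) that edgeR called between the curcumin and the old group, at a log2 change of -0.47 (SE 0.12, adjusted p = 0.0438). With the tRNAs split into parts, the same setting called 0 of 88 features, and the Leu-TAG CCA end had an adjusted p of 0.272 by edgeR. Over the alternatives that kept all libraries, or only those numbered 2 and 3, the adjusted p of whole Leu-TAG ranged from 0.000434 to 0.961. The lowest came from only the libraries numbered 2 and 3. Leaving out 1 library at a time gave 0.374 to 1.00. With only genome-matched reads, of which few are CCA ends, its log2 change was 0.11. That setting also dropped much of the Leu-TAG other part, of which 22.3% to 53.5% of reads matched.

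Mean shares of His-GTG and Ser-GCT differed in opposite directions, and as shares of the same total they are not independent. His-GTG had 6.71% ± 1.28 in the curcumin group and 12.0% ± 5.04 in the old group, while Ser-GCT had 32.2% ± 1.84 and 21.6% ± 11.1 (SD, n = 3 each; exact permutation p = 0.3 for both, adjusted p = 0.686). The 3 tRNAs together took 44.0% ± 0.505 of mitochondrial tRNA reads in the curcumin group and 41.5% ± 5.42 in the old group, which did not differ beyond the spread of the libraries (exact permutation p = 0.4). The difference of 2.46 percentage points was smaller than the spread within groups, 3.85 percentage points.

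**Figure D4:**
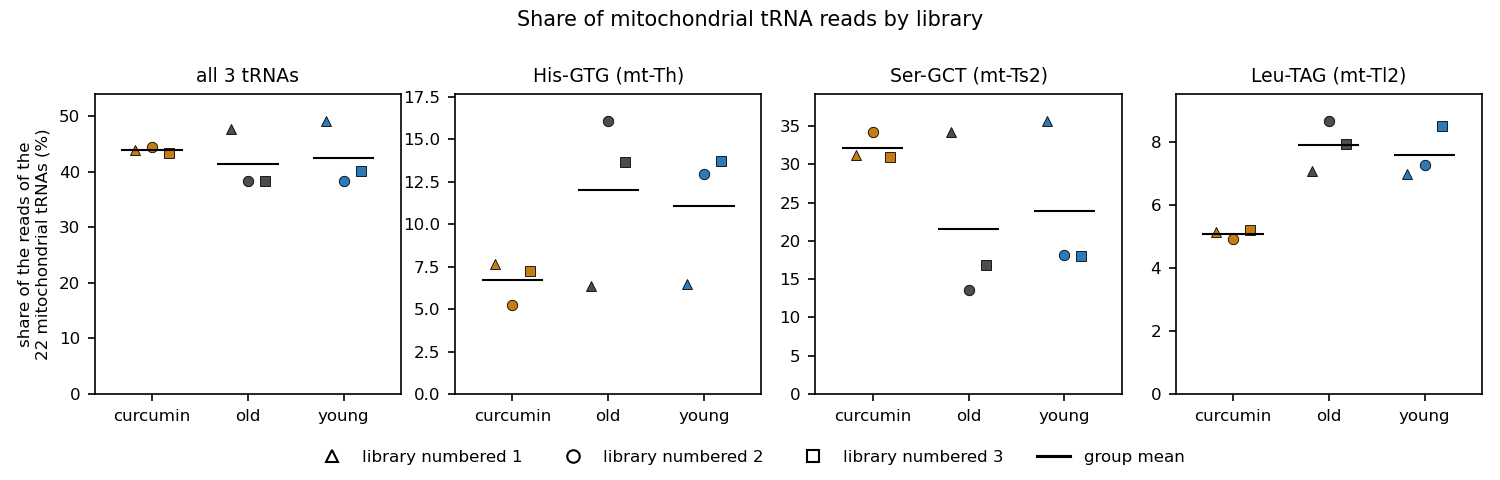
Share of the reads of all 22 mitochondrial tRNAs (percent, vertical axis from 0) taken by the 3 tRNAs together and by each, with 1 symbol per library and a line at the group mean. Leu-TAG lies at 4.90% to 5.21% in the curcumin libraries and at 6.98% to 8.65% in the other 6.

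Within Leu-TAG, the CCA end took 40.9%, 63.2% and 62.7% of reads in the curcumin libraries and 57.4%, 71.8% and 79.5% in the old libraries. The curcumin library was lower at each number, with differences of -16.6, -8.59 and -16.8 percentage points at numbers 1, 2 and 3, but the groups overlapped. The exact permutation test gave p = 0.3. The mean difference of -14.0 percentage points was -6.64 without curcumin library 1 and -9.03 without old library 3, -4.29 when only reads of the 3 named ends were counted and -1.42 with only genome-matched reads. The other part was the counterpart, with 50.4%, 35.4% and 35.7% in the curcumin libraries and 38.4%, 27.1% and 19.6% in the old libraries (exact permutation p = 0.3). The 5′ end took 0.408% ± 0.127 in the curcumin group and 0.190% ± 0.0768 in the old group (SD, n = 3 each; exact permutation p = 0.2).

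Within Ser-GCT, the CCA end took 0.162%, 0.0840% and 0.0888% of reads in the curcumin libraries and 0.237%, 0.304% and 0.588% in the old libraries. These groups did not overlap. The difference of -0.265 percentage points had an exact permutation p of 0.1, and an adjusted p of 1 over the 36 part shares compared. Without old library 3 the difference was -0.159. It concerns a minor part, which held 266 to 1572 reads per library.

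No part share of His-GTG differed between the curcumin and the old group by more than the spread within groups, and the ranges overlapped in all 4 parts. Its other part took 96.3% ± 0.835 of reads in the curcumin group and 96.3% ± 1.82 in the old group (SD, n = 3 each).

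The reads of the CCA end were also set against those of the CCA end and the 3′ end without CCA together, a share that does not depend on scaling between libraries. For His-GTG it was 59.7%, 95.1% and 90.7% in the curcumin libraries, 68.3%, 94.5% and 93.7% in the old libraries and 68.0%, 95.6% and 94.9% in the young libraries. For Leu-TAG it was 83.3%, 98.4% and 97.9% in the curcumin libraries, 93.4%, 98.7% and 99.2% in the old libraries and 92.6%, 99.2% and 99.1% in the young libraries. For Ser-GCT it was 82.1%, 93.4% and 89.6%, then 89.0%, 98.0% and 99.0%, then 90.0%, 95.6% and 97.6%, in the same order of groups.

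In all 3 tRNAs the library numbered 1 had the lowest share of its group. For His-GTG and Leu-TAG every library numbered 1 was below every other library, which also held for 14 of the other 19 mitochondrial tRNAs. Ser-GCT overlapped through curcumin library 3. For Ser-GCT and Leu-TAG the curcumin library had the lowest share of the 3 groups at each number. These shares were described and not tested.

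The second question was how old mice compared with young mice. In old against young mice the 3 tRNAs showed no change that passed a test, and the groups overlapped in all 12 parts, beside 4.62% of all features that did not overlap (2.31% higher and 2.31% lower). edgeR called 0 of 520 features (0%), with 5 at an unadjusted p under 0.05 and 0 of the 12 parts among them. DESeq2 also called 0, with 5 at an unadjusted p under 0.05 and again 0 of the 12 parts among them. The Leu-TAG CCA end had 3444, 5713 and 5325 CPM in the old libraries and 3835, 4993 and 6165 CPM in the young libraries. The Ser-GCT 5′ end had 27291, 11842 and 13378 CPM in the old libraries and 31837, 15539.6 and 15966 CPM in the young libraries. The His-GTG other part had 5094, 14449 and 11179 CPM in the old libraries and 5874, 11480.2 and 12497 CPM in the young libraries. In each of these main parts the library numbered 1 stood on the same side of the other 2 libraries of its group, in old and in young mice alike.

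The minor parts of His-GTG had low and overlapping levels in these groups. Its CCA end had 199, 280.0 and 313 CPM in the old libraries and 205, 237 and 239 CPM in the young libraries. Its 5′ end had 18.7, 31.9 and 35.6 CPM in the old libraries and 32.7, 18.6 and 20.3 CPM in the young libraries. Its 3′ end without CCA, which followed the library number, had 94.4, 8.80 and 13.9 CPM in the curcumin libraries, 92.5, 16.4 and 20.9 CPM in the old libraries and 96.3, 11.1 and 13.0 CPM in the young libraries.

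The minor parts of Ser-GCT overlapped as well. Its other part had 1642, 640.0 and 787 CPM in the old libraries and 2069, 826 and 789 CPM in the young libraries, and its CCA end had 68.9, 38.1 and 83.8 CPM and 75.8, 35.9 and 28.3 CPM. Its 3′ end without CCA had 10.0, 1.63 and 2.52 CPM in the curcumin libraries, 8.54, 0.792 and 0.862 CPM in the old libraries and 8.39, 1.66 and 0.710 CPM in the young libraries, and rested on 7 to 174 reads per library. Of Leu-TAG, the other part had 2301, 2156 and 1311 CPM in the old libraries and 2491, 1538 and 1673 CPM in the young libraries, and the 3′ end without CCA had 243, 76.2 and 40.3 CPM and 308, 38.2 and 56.0 CPM. In both 3′ ends the library numbered 1 was the highest of its group.

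The fitted change between old and young mice was larger than its standard error in 1 of 12 parts, the Leu-TAG 5′ end. It had 7.33, 13.9 and 18.3 CPM in the old libraries and 26.0, 14.0 and 15.8 CPM in the young libraries (log2 change -0.50, SE 0.47, adjusted p = 0.999). With only the libraries numbered 2 and 3 its sign turned, at a log2 change of 0.12. In that fit edgeR called 0 of 519 features (0%) between old and young mice, with 17 at an unadjusted p under 0.05. Among these were 2 of the 12 parts, the Ser-GCT CCA end (log2 change 0.93, unadjusted p = 0.0136) and the His-GTG 5′ end (0.80, unadjusted p = 0.0229), both with an adjusted p of 0.986.

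Shares of mitochondrial tRNA reads differed by less than the spread within groups, at 41.5% ± 5.42 in the old group and 42.6% ± 5.74 in the young group for the 3 tRNAs together, and 7.88% ± 0.782 and 7.58% ± 0.799 for Leu-TAG (SD, n = 3 each; exact permutation p = 0.6 and 0.7). The 1 part share that did not overlap between old and young mice was the Ser-GCT CCA end. It took 0.237%, 0.304% and 0.588% of Ser-GCT reads in the old libraries and 0.223%, 0.219% and 0.169% in the young libraries (exact permutation p = 0.1, adjusted p = 1 over 36 shares). The difference of 0.173 percentage points was 0.0673 without old library 3 and -0.00082 with only genome-matched reads.

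The third comparison set curcumin-treated mice of 18 months against young mice of 5 months. It shares the curcumin libraries with the first comparison and the young libraries with the second, so its values are not independent of theirs. Leu-TAG and the CCA ends of Leu-TAG and His-GTG were lower in all curcumin libraries than in all young libraries. edgeR called 0 of 520 features (0%), with 19 (3.65%) at an unadjusted p under 0.05, among them 2 of the 12 parts, the CCA ends of Leu-TAG and His-GTG. DESeq2 called 1 feature, which was no part of these 3 tRNAs, with 30 of 520 at an unadjusted p under 0.05, among them 2 of the 12 parts. The 2 of 12 parts that did not overlap were both lower, beside 5.58% of all features lower in that way, 4.81% higher and 10.4% in either direction. Among the 76 parts of other mitochondrial tRNAs, 12 were lower and 2 higher without overlap.

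The Leu-TAG CCA end had 1921, 2474 and 2559 CPM in the curcumin libraries and 3835, 4993 and 6165 CPM in the young libraries, a log2 change of -1.11 (SE 0.27, adjusted p = 0.669 by edgeR). Leu-TAG as a whole had 4700.2, 3916 and 4082 CPM in the curcumin libraries and 6661, 6584 and 7909.7 CPM in the young libraries (log2 change -0.69, SE 0.22, adjusted p = 0.916). The His-GTG CCA end had 139.9, 169.8 and 135 CPM in the curcumin libraries and 205, 237 and 239 CPM in the young libraries, a log2 change of -0.62 (SE 0.26, adjusted p = 0.942). In each of these 3 the curcumin libraries lay wholly below the young ones. For tRNAs taken whole, the share of all features that did so was not counted.

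The other changes larger than their standard error came with overlapping groups. They were log2 changes of -0.88 in the His-GTG other part, -0.83 in His-GTG as a whole, -0.52 in the His-GTG 5′ end and -0.63 in the Ser-GCT CCA end. Young library 1, at 5874 CPM of the His-GTG other part, was within the curcumin range of 4007 to 6741 CPM. The Ser-GCT 5′ end, at 25274 ± 2018 CPM in the curcumin group and 21114 ± 9289 CPM in the young group (SD, n = 3 each), differed by less than the spread of the young libraries.

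With only the libraries numbered 2 and 3, edgeR called 67 of 519 features (12.9%) between the curcumin and the young group, 4 of the 12 parts among them. The choice of libraries again came from these same data, so the calls are descriptive. The 5′ end (log2 change 0.64, adjusted p = 0.046) and the other part (0.78, adjusted p = 0.0386) of Ser-GCT were higher in the curcumin libraries. The His-GTG other part (-1.33, adjusted p = 0.000482) and the Leu-TAG CCA end (-1.14, adjusted p = 0.00136) were lower. Over all features 7.13% were called higher and 5.78% lower. Of the 74 tested parts of other mitochondrial tRNAs, 7 were called lower and 0 higher. Of the tRNAs taken whole, His-GTG (-1.47) and Leu-TAG (-1.01) were called, beside 23.4% of 320 features. Among the other 19 mitochondrial tRNAs taken whole, 7 were called lower and 0 higher.

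Leu-TAG took 5.08% ± 0.157 of mitochondrial tRNA reads in the curcumin group and 7.58% ± 0.799 in the young group (SD, n = 3 each), without overlap (exact permutation p = 0.1, adjusted p = 0.6). His-GTG took 6.71% ± 1.28 and 11.1% ± 3.96, and Ser-GCT 32.2% ± 1.84 and 23.9% ± 10.1, both with overlap (exact permutation p = 0.3 and 0.4). The Leu-TAG CCA end took 55.6% ± 12.8 of Leu-TAG reads in the curcumin group and 70.5% ± 11.2 in the young group, with differences of -16.7, -12.6 and -15.2 percentage points at numbers 1, 2 and 3 (exact permutation p = 0.3). An exact sign-flip test that took the numbers as pairs, which no label gives, had p = 0.25, the smallest that 3 pairs allow. The mean difference of -14.9 percentage points was -7.50 without curcumin library 1, -4.03 among the named ends and -2.10 with only genome-matched reads. The Ser-GCT CCA end took 0.111% ± 0.0435 and 0.204% ± 0.0304 of Ser-GCT reads, without overlap (exact permutation p = 0.1, adjusted p = 1).

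**Figure D5:**
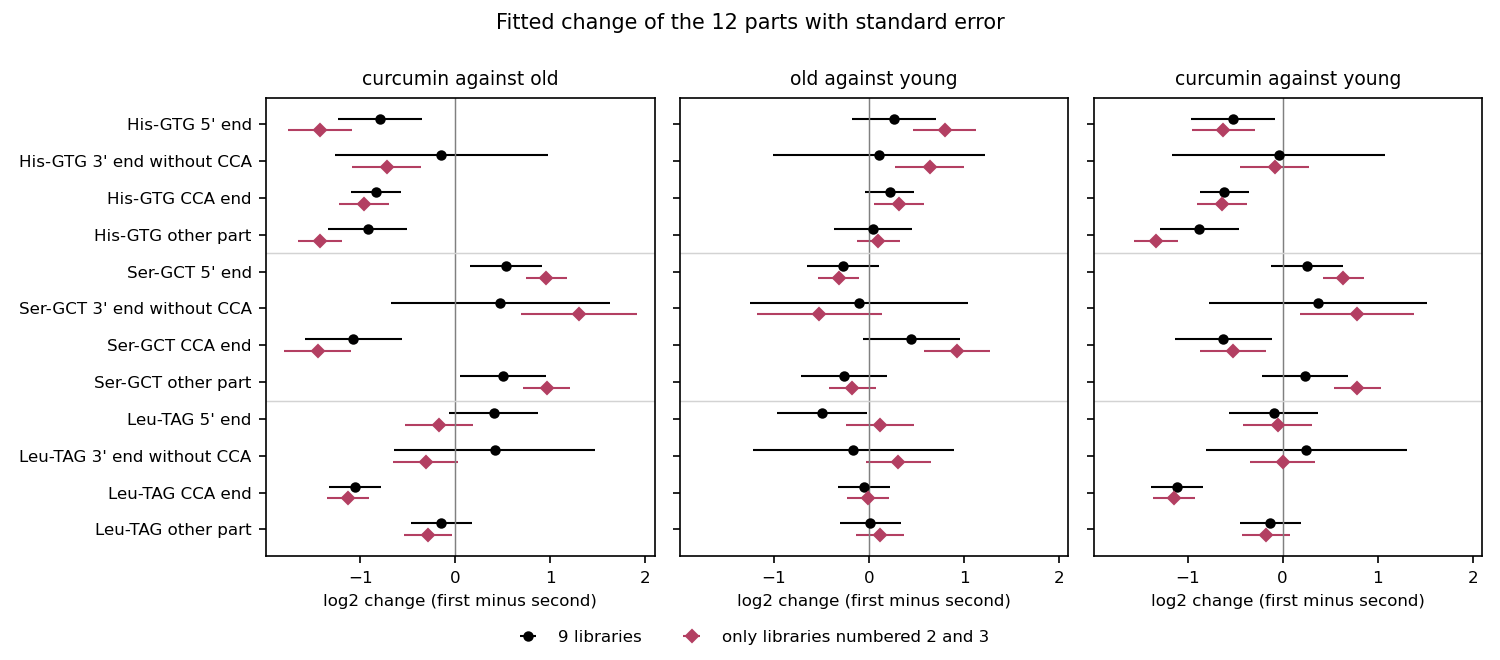
Fitted log2 change of the 12 parts (horizontal axis, first group minus second) with its standard error in the 3 comparisons, from all 9 libraries (circles) and from only the libraries numbered 2 and 3 (diamonds). The Leu-TAG CCA end lies near -1 in both comparisons of the curcumin group (-1.06 and -1.11 with all libraries) and near 0 between old and young mice.

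The parts of the other 19 mitochondrial tRNAs gave no call in the main fit, with 10 of 76 parts at an unadjusted p under 0.05 between curcumin and old mice, 1 between old and young mice and 7 between curcumin and young mice. The 2 of these parts with the smallest p between curcumin and old mice belonged to Glu-TTC. Its 5′ end averaged 989 ± 194 CPM in the curcumin group and 399.6 ± 141 CPM in the old group (log2 change 1.31, SE 0.33), and its CCA end 1556 ± 69.3 and 3030.0 ± 720 CPM (log2 change -0.96, SE 0.25, adjusted p = 0.525 for both; SD, n = 3 each). Between curcumin and young mice they were the CCA ends of Glu-TTC (log2 change -0.87) and Thr-TGT (-0.62), at adjusted p of 0.867 and 0.942. Between old and young mice they were the Glu-TTC 5′ end (-0.93) and the Asp-GTC CCA end (-0.62), both at an adjusted p of 0.999. The median log2 change between curcumin and old mice was -0.15 over the 12 parts, -0.02 over the 76 other mitochondrial parts and 0.08 over all features.

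The main part of each tRNA resembled different features across libraries. Pearson correlations of log2 CPM over the 9 libraries were computed with 159 features of at least 100 CPM on average. They are descriptions of libraries that share a group, a number and a scaling. The Leu-TAG CCA end was most like the CCA ends of mitochondrial Glu-TTC (r = 0.975) and Leu-TAA (r = 0.936), followed by the 5′ end of nuclear His-GTG (r = 0.891). The His-GTG other part was most like the 5′ end of mitochondrial Pro-TGG (r = 0.914), the other part of Asn-GTT (r = 0.913) and the other part of Pro-TGG (r = 0.901). The Ser-GCT 5′ end was most like 3 miRNAs, miR-30b (r = 0.948), miR-29c (r = 0.944) and miR-101a (r = 0.925), and no mitochondrial tRNA part was among its nearest 3.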

How the data were processed

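Per the labels, total RNA of atrial appendages was isolated with TRIzol, treated with AlkB and T4 polynucleotide kinase, cut from a gel at 15 to 45 nucleotides, ligated to adapters of a QIAGEN miRNA kit and read from 1 end over 75 cycles. Per the submitters' processing notes, cutadapt 2.5 and the build mm10 were used. What tool annotated the reads, how it defines tRNA ends, and how nuclear copies of mitochondrial DNA and molecular identifiers were handled is not given in the sources used here. Values deposited by the authors are expected counts per annotation, not normalized, in which a read that matched several annotations was divided among them.

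Matched and unmatched reads were summed, the other part of a tRNA was its whole row minus its 3 named ends, and values were rounded to whole numbers. Features covered 83.7% to 87.3% of clean reads. A robust quasi-likelihood model was fitted to the 9 libraries together with edgeR 4.0.16 (R 4.3.3; filterByExpr, TMM, no covariate beside group), with Benjamini-Hochberg adjustment over 520 features and a threshold of 0.05. tRNAs taken whole were refitted among 319 features. CPM are TMM-scaled. For shares, exact permutation tests were used, two-sided (scipy 1.17.1). Their 95% Wilson intervals reach at most 0.423 percentage points to either side for parts and 0.0922 for mitochondrial shares, and cover counting error only. Gene positions and sequences came from GENCODE M21.

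Fitted changes are printed where larger than their standard error, and differences of shares where larger than the spread within groups. All other values are given as levels per library or as group means. From the other 19 mitochondrial tRNAs the 2 parts with the smallest p per comparison were named. The members, lists, tests and alternatives were chosen with earlier results of these data known. No 2 libraries agreed within sampling noise (36 pairs, chi-square). The fit was also run on simulated counts that held no difference by library number, so that run cannot show how the fit handles such a difference. Alternatives were RLE scaling, clean-read totals, DESeq2 1.42.0, no filter, only the groups compared, genome-matched reads, mitochondrial tRNAs alone, the named ends alone or clean reads as denominator, the replicate number as a block, libraries numbered 2 and 3 alone, and leaving out each library. Whether library numbers pair the samples was checked by correlating deviations from group means. The 3 correlations were 0.806, 0.643 and 0.299 between old and young mice and 0.332, 0.192 and 0.316 between curcumin and young mice, all over 0.1, so that the numbers were taken to pair these groups. Between curcumin and old mice they were 0.277, -0.0924 and 0.396, and the numbers were not taken to pair them. Differences by number between curcumin and old mice are therefore descriptive, and the main fit used no pairing in any comparison.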

Additional observations from a re-analysis of the deposited data

How the results depend on the processing

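With the libraries numbered 2 and 3 alone, 73 features were called between curcumin and old mice and 67 between curcumin and young mice, against 0 each with all libraries, and DESeq2 called 1 feature between curcumin and young mice. With tRNAs taken whole, DESeq2 also called 1 feature there, and edgeR with no filter on low counts called 1 feature of 745 between curcumin and old mice, 2 between old and young mice and 4 between curcumin and young mice. None of these was one of the 3 tRNAs, and 1 of the last was mitochondrial Pro-TGG, lower in the curcumin group. The cause was not tested. Counting only genome-matched reads, which removes most CCA-end reads, turned the sign of 6 results: the log2 changes between curcumin and old mice of the His-GTG CCA end (0.22), the Ser-GCT CCA end (0.10) and whole Leu-TAG (0.11), the Leu-TAG share of mitochondrial tRNA reads between the same groups (0.118 percentage points), the Ser-GCT CCA share between old and young mice (-0.00082 percentage points) and the Leu-TAG other share between curcumin and young mice (-0.0837 percentage points). Counting only genome-matched reads also removed much of the Leu-TAG other part, of which 22.3% to 53.5% of reads matched. The Leu-TAG 5′ end between old and young mice turned to 0.12 with the libraries numbered 2 and 3 alone. Of the alternative values computed for the printed log2 changes, 305 kept direction and side of the threshold. Another 4 turned sign, and 15 passed the threshold where the main fit had not. Of the 15, whole Leu-TAG between curcumin and old mice passed with the mitochondrial tRNAs alone. All the others came from the libraries numbered 2 and 3 alone, a choice made from these same data. Shares could not pass the threshold in any setting, because exact tests of so few libraries cannot give p under 0.1. Leaving out each library in turn reversed no printed result and left 0 to 0 features called in each comparison. The Leu-TAG CCA end then ranged from -1.18 to -0.90 between curcumin and old mice and from -1.31 to -0.87 between curcumin and young mice, and the Ser-GCT 5′ end from 0.31 to 1.08 between curcumin and old mice. Differences in shares of mitochondrial tRNA reads between curcumin and old mice ranged from -8.15 to -3.31 percentage points for His-GTG (without old libraries 1 and 2), from 6.60 to 16.9 for Ser-GCT (without old libraries 2 and 1) and from -3.20 to -2.42 for Leu-TAG. Between curcumin and young mice they ranged from -6.63 to -3.03 for His-GTG (without young libraries 1 and 3), from 5.30 to 14.1 for Ser-GCT (without young libraries 3 and 1) and from -2.80 to -2.05 for Leu-TAG. With the replicate number as a block, 0 features were called in every comparison, no call changed, and the Leu-TAG CCA end was at -1.04 (adjusted p = 0.273) between curcumin and old mice and -1.09 (adjusted p = 0.186) between curcumin and young mice. Scaling by clean-read totals shifted the median of all features by 0.23 between curcumin and old mice and by 0.19 between curcumin and young mice; the Leu-TAG CCA end was then at -0.81 and -0.88. The Ser-GCT 3′ end without CCA and both minor 5′ ends rest on few reads (at lowest 7, 103 and 167), which limits what can be said of them.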
